A study of Arabidopsis thaliana with 18 samples.

Results

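The genes described here are the WRKY transcription factors of the Arabidopsis thaliana seedling root: 65 genes of the 25177 in the deposited table, chosen by a WRKY symbol, plus ABO3 (the WRKY factor also known as WRKY63), with reads in at least 3 libraries. Of 66 genes with such a name, WRKY67 did not enter, with 4 counts in 2 libraries, and WRKY68 entered with 5 counts in 4 libraries. WRKY factors listed under other symbols, namely ZAP1, TTG2, TTR1 and RRS1, were not counted, and WRKY12 and WRKY64 were not analysed here. By the textbook division of the family, 12 members belonged to subgroup I, 3 to IIa, 8 to IIb, 17 to IIc, 7 to IId, 7 to IIe and 11 to III.

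The question of the study was the part that GUN1 and NAC103 play in roots of rab8d-2, which has a defect in the plastid translation elongation factor EF-Tu (RAB8D). RNA was sequenced from seedling roots (per the extraction protocol, from their root tips) of 6 genotypes with 3 libraries each: Col-0 wild type (WT), the single mutants rab8d-2, gun1-101 and nac103-11, and 2 double mutants, gun1-101 rab8d-2 together with nac103-11 rab8d-2. GUN1 is a plastid protein that acts in signalling from plastid to nucleus, and NAC103 is a NAC-family transcription factor of stress responses. Seedlings were grown without further treatment on plates with sucrose in long days. Their age is given as 4 days in the sample titles and as 3 days in the design text. Each mutated gene was represented by 1 allele, and the labels do not give the kind of lesion. The labels call the libraries biological replicates without naming separate cultures, so p-values measure the spread between these libraries, which may be technical.

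WRKY factors bind DNA through a domain with the amino acids after which the family is named and a zinc finger, and most of them bind the W-box, a short element with the core TTGAC. Many are induced by pathogens, wounding, salicylate or abiotic stress, they often bind the promoters of other WRKY genes, and mitogen-activated protein kinases phosphorylate several of them. In roots the family includes regulators of immunity, phosphate uptake, auxin-dependent development and responses to abscisic acid.

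The promoters of 7 members are printed to show windows with and without the searched forms of the element. They were taken among genes described in detail, 6 that rose and WRKY14, which fell. Each runs from 250 bases before to 50 bases after the annotated gene start, 300 bases in all, 5′ to 3′ on the strand of the gene, from the RefSeq assembly TAIR10.1. Capitals mark the W-box, searched as TTGACC or TTGACT on both strands (AGTCAA is the reverse complement of the latter).
WRKY28 (chr4:10060964-10061263, plus strand): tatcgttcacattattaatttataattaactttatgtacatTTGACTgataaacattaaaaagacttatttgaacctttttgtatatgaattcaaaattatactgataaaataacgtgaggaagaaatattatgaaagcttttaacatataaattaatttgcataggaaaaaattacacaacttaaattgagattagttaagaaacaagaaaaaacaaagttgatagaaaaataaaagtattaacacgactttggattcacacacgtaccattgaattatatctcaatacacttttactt
WRKY38 (chr5:7496941-7497240, minus strand): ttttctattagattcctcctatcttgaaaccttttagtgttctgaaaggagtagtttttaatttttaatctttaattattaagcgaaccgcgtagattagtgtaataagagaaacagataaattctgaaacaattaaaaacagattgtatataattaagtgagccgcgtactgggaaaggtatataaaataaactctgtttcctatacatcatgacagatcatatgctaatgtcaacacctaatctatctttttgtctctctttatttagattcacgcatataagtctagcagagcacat
WRKY29 (chr4:12291382-12291681, plus strand): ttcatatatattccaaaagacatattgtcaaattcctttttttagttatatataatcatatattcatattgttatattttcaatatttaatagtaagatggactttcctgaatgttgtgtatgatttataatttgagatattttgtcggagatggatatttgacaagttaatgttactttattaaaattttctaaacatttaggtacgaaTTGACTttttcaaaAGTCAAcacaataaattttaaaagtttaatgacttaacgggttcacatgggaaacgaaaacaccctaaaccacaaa
WRKY30 (chr5:8154661-8154960, minus strand): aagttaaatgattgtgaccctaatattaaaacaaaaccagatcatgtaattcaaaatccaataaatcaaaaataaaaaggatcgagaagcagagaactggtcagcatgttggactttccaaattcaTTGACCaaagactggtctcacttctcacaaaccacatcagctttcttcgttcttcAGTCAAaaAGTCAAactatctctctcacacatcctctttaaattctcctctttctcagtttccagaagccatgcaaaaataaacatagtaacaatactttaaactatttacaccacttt
WRKY62 (chr5:352046-352345, minus strand): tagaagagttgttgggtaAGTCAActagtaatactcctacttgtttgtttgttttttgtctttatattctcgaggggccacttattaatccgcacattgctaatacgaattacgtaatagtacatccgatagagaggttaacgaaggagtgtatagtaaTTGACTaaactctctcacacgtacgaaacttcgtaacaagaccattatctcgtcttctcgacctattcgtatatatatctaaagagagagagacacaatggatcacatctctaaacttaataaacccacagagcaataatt
ABO3 (chr1:24848070-24848369, plus strand): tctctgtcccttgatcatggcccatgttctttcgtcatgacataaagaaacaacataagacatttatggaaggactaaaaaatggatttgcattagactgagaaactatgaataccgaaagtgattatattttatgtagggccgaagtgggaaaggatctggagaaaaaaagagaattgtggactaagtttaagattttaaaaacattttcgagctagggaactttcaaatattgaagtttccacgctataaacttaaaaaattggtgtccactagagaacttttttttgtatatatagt
WRKY14 (chr1:10867968-10868267, plus strand): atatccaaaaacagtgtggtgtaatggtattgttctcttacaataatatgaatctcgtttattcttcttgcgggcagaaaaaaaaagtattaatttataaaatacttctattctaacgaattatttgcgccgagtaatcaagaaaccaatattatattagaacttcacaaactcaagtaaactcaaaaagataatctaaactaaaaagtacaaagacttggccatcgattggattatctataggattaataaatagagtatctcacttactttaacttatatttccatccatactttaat

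The WRKY28 window held 1 match, 209 bases before the gene start, and the WRKY29 window held 2 matches, in opposite orientation, 40 and 26 bases before it. WRKY30 had 3 matches and WRKY62 had 2, while WRKY38, ABO3 and WRKY14 had neither searched form in the window. The core TTGAC with another last base was not counted, and the WRKY38 window holds it as tgtcaa, the reverse complement of TTGACA. Of the other members that rose most, WRKY48, WRKY51, WRKY59, WRKY66 and WRKY71 had none either, and WRKY41 had 2. The printed windows thus hold more matches than these genes do as a whole. At least 1 match was present in 22 of the 65 members (33.85%), beside 32.69% of the 25176 promoters that could be cut for all genes. At least 2 matches were present in 12 members (18.46%), beside 7.76% of all promoters. Matches overlapped in 29 promoters of all genes and in 0 member promoters. A match is a description of the letters and not a binding site.

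Total counts lay between 22625981 and 23090995 per library, and 21004 genes passed the low-count filter. RAB8D, listed in the table as RABE1b, had 137 ± 34.8 CPM (reads of the gene as a share of all reads of the library after TMM scaling, the usual CPM unit, mean ± SD, n = 3) in WT and 13.7 ± 4.53, 7.52 ± 1.44 and 10.1 ± 4.95 CPM in rab8d-2 and in its double mutants with gun1-101 and with nac103-11. GUN1 had 147 ± 16.7 CPM in WT, 79.6 ± 11.7 in gun1-101 and 54.1 ± 5.57 in gun1-101 rab8d-2, so RNA of this gene was still read in its mutants. NAC103 had 1.07 ± 0.797 CPM in WT, 0.136 ± 0.0507 in nac103-11, 19.6 ± 9.29 in rab8d-2 and 6.24 ± 2.66 in nac103-11 rab8d-2. The 5 root meristem markers were read in every library, at summed levels of 101 to 202 CPM. Markers of shoot tissue summed to between 1.82 and 785 CPM per library, with wide ranges within genotypes, and none of the 6 passed in the comparisons below. The third libraries of WT and of nac103-11 rab8d-2 lay far from their own genotypes, and counts and calls that changed without them are given below.

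WRKY RNA covered a wide range of levels. On the TPM scale, which accounts for gene length, 31 members had a mean over the genotypes of at least 10 TPM, 20 had at least 1 and under 10 TPM, and 14 were under 1 TPM. The most abundant was WRKY40, a regulator of defence and abscisic acid responses, with 98.7 TPM on average and genotype means from 22.6 to 246 TPM. WRKY65 followed with 98.4 TPM, WRKY33, an activator of camalexin synthesis, with 95.5 TPM, WRKY15 with 86.3 TPM and WRKY17, a negative regulator of basal resistance, with 81.6 TPM. Their order differed between genotypes. In nac103-11 WRKY65 stood at 121 ± 17.6 TPM and WRKY40 at 22.6 ± 4.93 TPM, while in gun1-101 rab8d-2 WRKY40 stood at 246 ± 91.8 TPM and WRKY65 at 84.6 ± 3.59 TPM. In the other 4 genotypes the SD ranges of these 2 genes overlapped. ABO3 was among the members of low level, at 0.157 to 0.233 TPM in 4 genotypes and at 5.73 ± 0.25 TPM in gun1-101 rab8d-2 and 2.89 ± 1.52 TPM in nac103-11 rab8d-2 (SD, n = 3).

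Of the 65 members, 60 passed the low-count filter and were tested. The others were WRKY10 with 65 counts over all libraries, of which 32 were in gun1-101 rab8d-2 and 25 in nac103-11 rab8d-2, WRKY49 with 22, WRKY34 with 19, WRKY55 with 16 and WRKY68 with 5. Of the tested members, 8 (WRKY28, WRKY38, WRKY41, WRKY59, WRKY62, WRKY66, WRKY71 and ABO3) passed the filter only through the genotypes with rab8d-2, and WRKY58 only through those without it. These 9 had to differ, so counts are also given without them. Over the 6 genotypes 35 of the 60 tested members differed (edgeR's quasi-likelihood F test, Benjamini-Hochberg adjusted p below 0.05), or 58.3%, beside 46.0% of all genes tested. Without the 9 members the count was 26 of 51, or 51%.

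**Figure D1:**
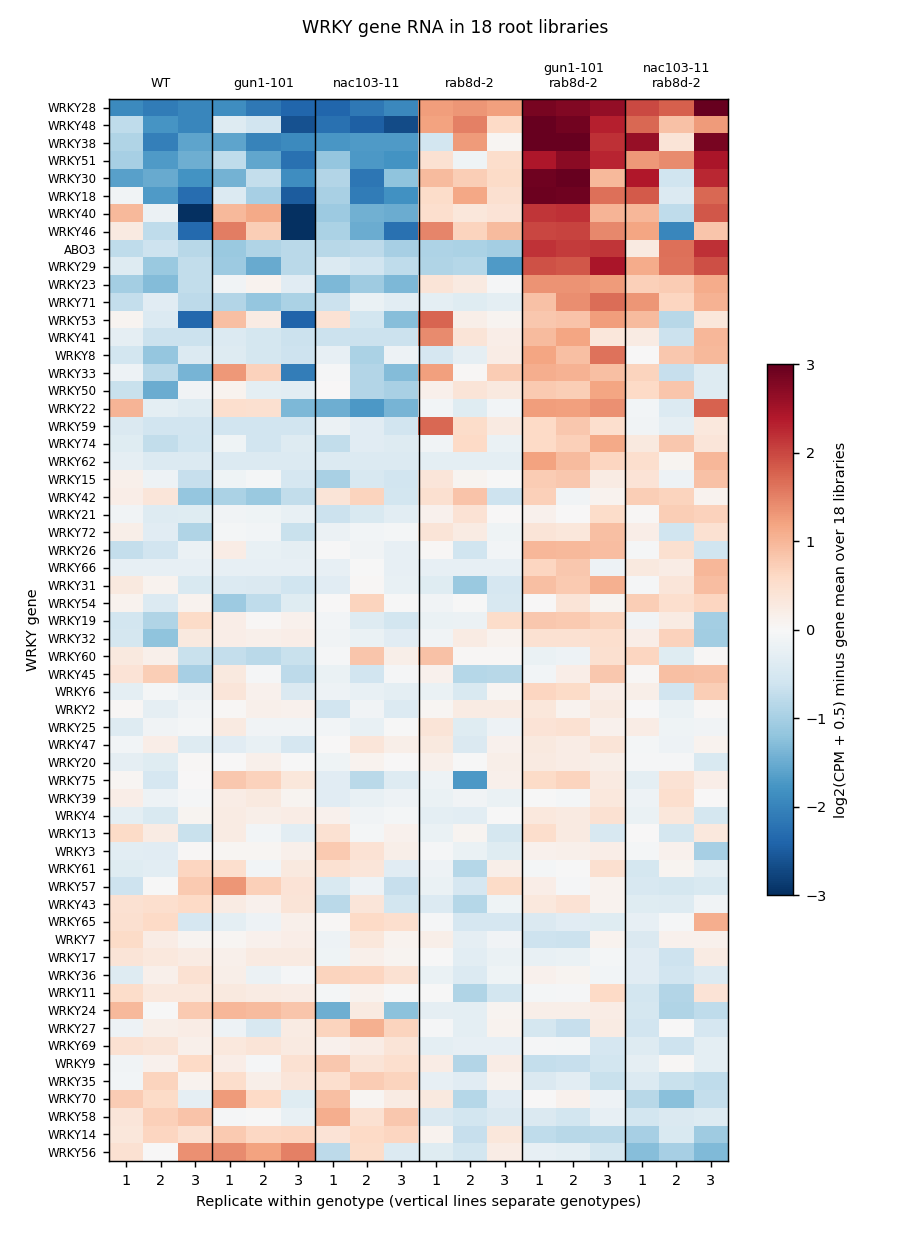
RNA of the 60 tested WRKY genes (vertical axis) in the 18 libraries (horizontal axis, grouped by genotype). Colour is log2(CPM + 0.5) minus the mean of the gene over all libraries, limited to 3 in either direction, and genes are ordered by the difference between genotypes with and without rab8d-2. The genes at the top, among them WRKY28 and WRKY38, were high in the 9 libraries with rab8d-2, and the columns of the third gun1-101 and the second nac103-11 rab8d-2 library were lower than their neighbours for several genes.

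With the rab8d-2 allele 10 tested WRKY genes were called in the otherwise wild-type root (12.3% of all genes), 27 in the root that also carried gun1-101 (28.3%) and 27 in that with nac103-11 (29.0%), and the difference between these counts was not tested. In rab8d-2 against WT 7 members rose and 3 fell, beside 4.80% of all genes higher and 7.50% lower. With gun1-101 in both genotypes 22 rose and 5 fell (12.7% and 15.7% of all genes), and with nac103-11 in both 17 rose and 10 fell (14.7% and 14.3% of all genes). The libraries of the compared genotypes did not overlap for 23, 41 and 31 tested members, beside 28.4%, 64.2% and 40.8% of all genes. Among the 51 members that did not pass the filter through 1 side only, the counts were 4 higher and 2 lower, 14 and 5, and 11 and 9. The median log2 fold change of the tested members was 0.05, 0.57 and 0.38 in these comparisons, beside 0.01, 0.05 and 0.09 for all genes, and members at 0 counts in the parent lay above the last 2 medians at their bounds as well. Over the 51 members the medians were 0.00, 0.40 and 0.20. The 3 comparisons share no library. The count for rab8d-2 against WT was 5 without WT replicate 2 (3.52% of all genes) or without rab8d-2 replicate 2 (2.1%). Without the 2 libraries that stood apart it was 18, or 29.5% of the members tested there beside 37.6% of all genes.

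Counts by subgroup depended on the members that passed the filter through 1 side only, of which 8 of 9 belong to IIc or III. Of all genes 12.7% rose and 15.7% fell with gun1-101, and 14.7% rose and 14.3% fell with nac103-11. With gun1-101, 7 of 10 tested members of III and 7 of 15 of IIc rose, and 2 of 5 and 4 of 12 without those members. With nac103-11, 5 of 10 of III and 6 of 15 of IIc rose, and 1 of 5 and 4 of 12 without them. Rises were not confined to III and IIc. In I, IIa, IIb and IId, 1 of 10, 1 of 3, 3 of 8 and 2 of 7 tested members rose with gun1-101. With nac103-11 the rises in these 4 subgroups were 0 of 10, 1 of 3, 0 of 8 and 3 of 7. Of the 7 members of IIe, none of which passed through 1 side, 1 rose and 3 fell with gun1-101, and 2 rose and 4 fell with nac103-11. The other 6 falls with nac103-11 lay in I, IIb, IIc and III.

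**Figure D2:**
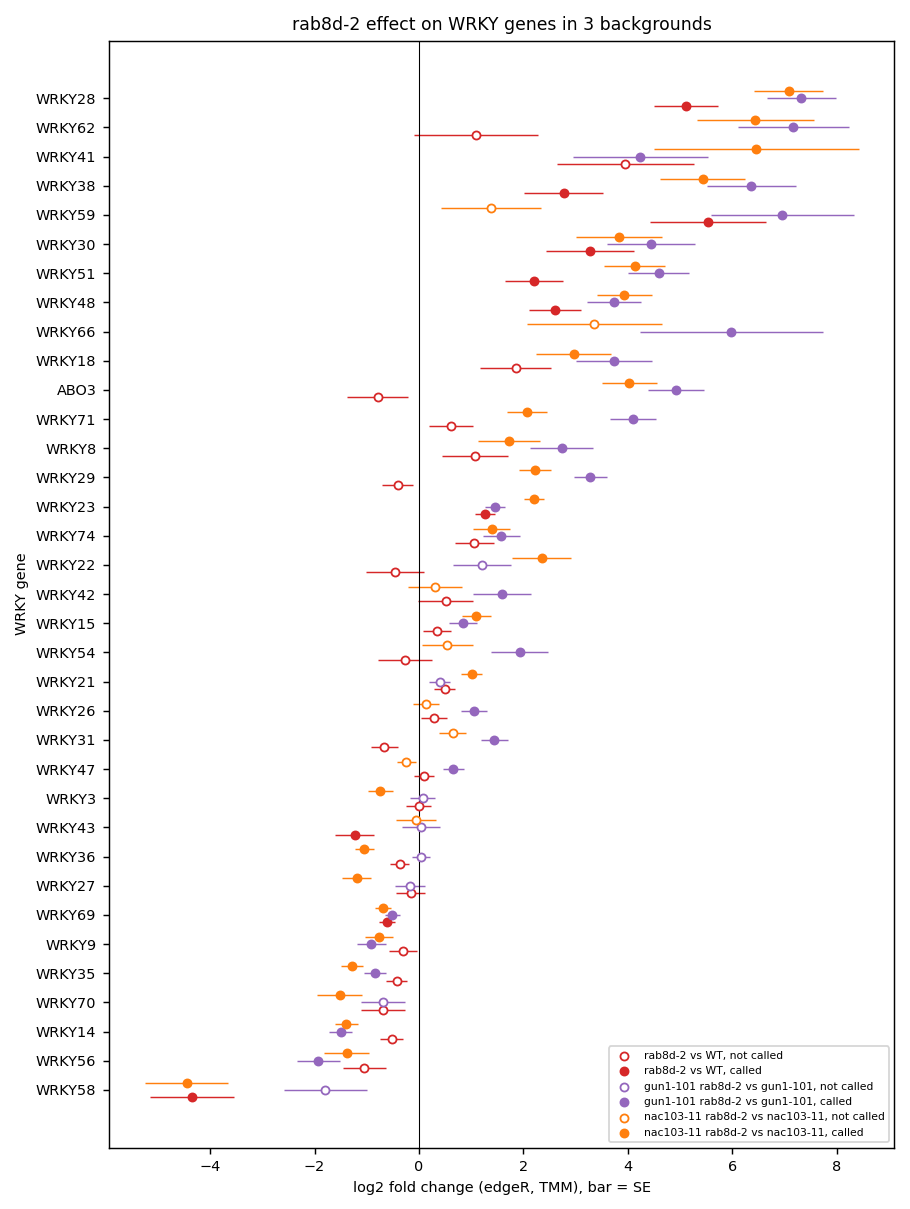
The log2 fold change of the rab8d-2 allele (horizontal axis, bars are SE) for each WRKY gene called in at least 1 of 3 backgrounds (vertical axis), with filled points for adjusted p below 0.05. Most points lie to the right of 0, WRKY28 lies above 5 in the 3 backgrounds, and the points of ABO3 and WRKY29 in WT lie to the left of 0 while those in the double mutants lie to the right. Points of genes with at most 3 counts in a genotype, such as WRKY62, depend on the prior count of the fit and are no estimate of a fold.

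Among regulators of salicylate and immunity, WRKY28 (AT4G18170), an activator of the salicylate synthesis gene ICS1, had the smallest adjusted p of any member over the 6 genotypes (1.15e-06). Its level was 0.199, 0.108 and 0.174 CPM in WT, 0.219, 0.0896 and 0 in gun1-101, and 0, 0.0927 and 0.185 in nac103-11. With rab8d-2 it was 5.77, 6.03 and 5.63 CPM in the single mutant, 18.5, 17.6 and 15.7 in gun1-101 rab8d-2, and 9.77, 8.57 and 20.5 in nac103-11 rab8d-2. All 9 libraries with the allele were above all 9 without it, but WRKY28 passed the low-count filter only through the former. The rise was log2 5.12 ± 0.61 in rab8d-2 against WT (SE, edgeR adjusted p = 0.00031), 7.32 ± 0.66 against gun1-101 and 7.08 ± 0.66 against nac103-11. The parents hold 6 to 10 counts over 3 libraries, and the values ranged from 6.75 to 8.44 without a gun1-101 library (8.44 without replicate 1) and from 6.48 to 8.03 without a nac103-11 library (6.48 without replicate 1, 8.03 without replicate 3). The differences between the double mutants and rab8d-2 did not pass (log2 1.57 ± 0.46, adjusted p = 0.0651, and 1.15 ± 0.45, adjusted p = 0.155).

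WRKY38 (AT5G22570), a negative regulator of basal defence that acts with WRKY62, was at 0.846, 0.108 and 0.348 CPM in WT, 0.35, 0.134 and 0.175 in gun1-101, and 0.252, 0.278 and 0.278 in nac103-11. It was at 1.24, 5.63 and 2.15 CPM in rab8d-2, 21.5, 23.1 and 11.1 in gun1-101 rab8d-2, and 14.9, 2.82 and 17.8 in nac103-11 rab8d-2. Every library with rab8d-2 was above every library without it, and the second nac103-11 rab8d-2 library was far below the other 2. WRKY38 passed the low-count filter only through the genotypes with rab8d-2. It rose by log2 6.36 ± 0.85 against gun1-101 (adjusted p = 0.00017) and by 5.43 ± 0.82 against nac103-11 (adjusted p = 0.000457). The rise in rab8d-2 against WT (2.77 ± 0.75, adjusted p = 0.0302) was lost without WT replicate 2 or 3 or without rab8d-2 replicate 2 (log2 1.95, adjusted p = 0.187 without the last), and was 3.66 without WT replicate 1.

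WRKY62 (AT5G01900) was read at 0 to 3 counts per genotype without a second mutation: 1 count in WT, 0 in gun1-101, 0 in nac103-11 and 3 in rab8d-2. In gun1-101 rab8d-2 it was at 1.02, 0.782 and 0.528 CPM, 60 counts in all, and in nac103-11 rab8d-2 at 0.435, 0.198 and 0.813 CPM, 29 counts in all. The 6 double mutant libraries were above all 12 others, but WRKY62 passed the low-count filter only through the double mutants. The direction of its calls, also against rab8d-2, was thus set in advance. Against the parents it was at least 17.5-fold and at least 9.73-fold higher, from a floor of 3 counts over the group (adjusted p = 0.000834 and 0.00219). Against rab8d-2 the ratio was 19 (95% exact interval 6.19 to 94.7, counting error only) and 10.7 (3.32 to 54.9), with adjusted p = 0.0153 and 0.0484. The last call was lost in 16 of the 18 fits that left out 1 library (adjusted p up to 0.155) and without the 2 libraries that stood apart, and the other in 4 (up to 0.0653).

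WRKY48 (AT5G49520), a repressor of basal defence, was at 14.9, 7.16 and 6.13 CPM in WT, 19.2, 16.9 and 3.77 in gun1-101, and 4.96, 4.26 and 3.52 in nac103-11. With rab8d-2 it was at 59.4, 73 and 39 CPM in the single mutant, 210, 192 and 130 in gun1-101 rab8d-2, and 84.8, 47.2 and 62.9 in nac103-11 rab8d-2. The 9 libraries with the allele did not overlap the 9 without it. The rise was log2 2.60 ± 0.50 (adjusted p = 0.00705) in the wild-type background, 3.74 ± 0.52 (adjusted p = 0.000207) with gun1-101 and 3.93 ± 0.53 (adjusted p = 0.000228) with nac103-11. A difference of gun1-101 rab8d-2 from rab8d-2 did not pass (1.63 ± 0.47, adjusted p = 0.065), and nac103-11 rab8d-2 overlapped rab8d-2 (0.19 ± 0.46). The call in rab8d-2 against WT was lost when only the libraries of these genotypes were fitted.

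WRKY51 (AT5G64810), which with WRKY50 acts in the repression of jasmonate signalling, was at 1.09, 0.485 and 0.652 CPM in WT, 1.4, 0.582 and 0.175 in gun1-101, and 0.925, 0.463 and 0.417 in nac103-11. It was at 3.86, 2.41 and 4.09 CPM in rab8d-2, 16.8, 20.4 and 15.2 in gun1-101 rab8d-2, and 7.4, 8.01 and 16.9 in nac103-11 rab8d-2. The 3 genotypes without the allele overlapped each other, rab8d-2 lay above them, and the double mutants lay above rab8d-2 in every library. It rose by log2 2.20 ± 0.55 in rab8d-2 (adjusted p = 0.021), 4.59 ± 0.58 in gun1-101 rab8d-2 (adjusted p = 0.00012) and 4.13 ± 0.58 in nac103-11 rab8d-2 (adjusted p = 0.000287) against the parents. It also rose in gun1-101 rab8d-2 against rab8d-2 (2.34 ± 0.51, adjusted p = 0.0206) and did not pass in nac103-11 rab8d-2 (1.63 ± 0.50, adjusted p = 0.0829). The call in rab8d-2 was lost without WT replicate 2 or rab8d-2 replicate 2 (adjusted p up to 0.0855), that against rab8d-2 in 5 of 18 fits that left out a library (up to 0.0839), and the value against gun1-101 was 5.51 without gun1-101 replicate 1.

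WRKY30 (AT5G24110), a gene of oxidative stress responses, was at 0.498, 0.592 and 0.391 CPM in WT, 0.656, 1.39 and 0.351 in gun1-101, and 1.18, 0.185 and 0.835 in nac103-11. It was at 5.52, 4.7 and 4.09 CPM in rab8d-2, 22.8, 24.1 and 5.62 in gun1-101 rab8d-2, and 16, 1.55 and 14.3 in nac103-11 rab8d-2. The libraries with the allele were above those without it, and 1 library of each double mutant was far below the other 2. It rose by log2 3.27 ± 0.84, 4.45 ± 0.84 and 3.83 ± 0.82 in the 3 backgrounds (adjusted p = 0.024, 0.0016 and 0.00371). The first call was lost without WT replicate 1 or 2 or rab8d-2 replicate 2 (adjusted p up to 0.0792), and the second value was 5.14 without gun1-101 replicate 2.

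WRKY18, which forms complexes with WRKY40 and WRKY60 in defence, did not pass in rab8d-2 against WT (54.1 ± 15.2 against 15.1 ± 12.7 CPM, log2 1.85 ± 0.68, adjusted p = 0.0863). It rose to 197 ± 83.9 CPM in gun1-101 rab8d-2 from 14.8 ± 9.25 in gun1-101 (log2 3.73 ± 0.73, adjusted p = 0.00214), and to 81.6 ± 50.3 in nac103-11 rab8d-2 from 10.5 ± 4.7 in nac103-11 (2.96 ± 0.71, adjusted p = 0.00716). WRKY40 and WRKY60 did not pass in any comparison of the 3, with log2 values of 1.38 ± 1.01 and 0.89 ± 0.37 against gun1-101. WRKY58, a negative regulator of systemic acquired resistance, had the largest falls in the WT and nac103-11 backgrounds. It was at 0.448, 0.7 and 0.826 CPM in WT, 0.219, 0.224 and 0.132 in gun1-101, and 1.05, 0.51 and 0.788 in nac103-11, and it had 2 counts in rab8d-2, 4 in gun1-101 rab8d-2 and 2 in nac103-11 rab8d-2. Its 9 libraries with the allele were all below the 9 without it, but WRKY58 passed the low-count filter only through the latter. The ratio of WT to rab8d-2 was 24.5 (95% exact interval 6.36 to 209, adjusted p = 0.00586) and that of nac103-11 to nac103-11 rab8d-2 was 26.3 (6.94 to 223, adjusted p = 0.00129), while the difference against gun1-101 did not pass (log2 -1.79 ± 0.79, adjusted p = 0.0998). The fitted log2 value against nac103-11 was -4.45, and -3.86 without nac103-11 rab8d-2 replicate 1.

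Several members near the limit of detection were also called higher. WRKY59, WRKY41 and WRKY66 passed the low-count filter only through the genotypes with rab8d-2, so the direction of their calls was set in advance. WRKY58, also at a low level, passed only through the genotypes without it and fell. WRKY59 had 73 counts in rab8d-2 and 1 in WT, a ratio of 61.1 (95% exact interval 10.6 to 2446, adjusted p = 0.0108), and at least a 15.2-fold higher level in gun1-101 rab8d-2, with 52 counts, than in gun1-101, with 0 (adjusted p = 0.0028). Of the 73 counts the first rab8d-2 library held most, at 1.99 CPM beside 0.603 and 0.405, and the fitted log2 value of 5.53 was 4.55 without it and 7.53 without WT replicate 1. In nac103-11 rab8d-2 WRKY59 did not pass (adjusted p = 0.297). WRKY41, which acts in seed dormancy, had 72 counts against 3 in gun1-101 (21, 6.91 to 104, adjusted p = 0.0283) and 28 against 0 in nac103-11 (at least 9.4-fold, adjusted p = 0.0259), and both calls were lost in at least 4 fits that left out a library (adjusted p up to 0.0992 and 0.0667). The call against nac103-11 was also lost without the 2 libraries that stood apart. Its fitted log2 values of 4.24 and 6.46 were 5.08 without gun1-101 replicate 1, and 5.39 to 7.08 without the third or the second nac103-11 rab8d-2 library. WRKY66 rose against gun1-101 (26 counts against 0, at least 7.59-fold, adjusted p = 0.0324) with 5 such losses (up to 0.0875), and it was at 0 counts in rab8d-2 and WT.

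Of the regulators below the flagellin kinase cascade, WRKY29 (AT4G23550) rose in the double mutants and was not called in rab8d-2. It was at 12.2, 7.16 and 9.39 CPM in WT, 7.35, 5.33 and 9.04 in gun1-101, 11.9, 10.6 and 9.23 in nac103-11, and 8.38, 8.68 and 4.58 in rab8d-2. In gun1-101 rab8d-2 it was at 61.6, 60 and 89.6 CPM and in nac103-11 rab8d-2 at 35.2, 50.7 and 62.7 CPM. WT overlapped each single mutant, and nac103-11 lay above gun1-101 and rab8d-2. The 6 double mutant libraries were above all libraries of these 4 genotypes. The change in rab8d-2 against WT was log2 -0.41 ± 0.29 (adjusted p = 0.355). The rise was 3.28 ± 0.32 against gun1-101 (adjusted p = 1.91e-05), 2.22 ± 0.30 against nac103-11 (adjusted p = 0.000246), and 3.29 ± 0.31 and 2.78 ± 0.31 against rab8d-2 (adjusted p = 0.000204 and 0.000841).

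WRKY22, which acts beside WRKY29 in that cascade, rose in nac103-11 rab8d-2 (40.6 ± 35.6 CPM) against nac103-11 (7.97 ± 1.02 CPM, log2 2.35 ± 0.57, adjusted p = 0.00791). The rise rested in part on the third library, at 81.6 CPM beside 22.5 and 17.7, and was 1.32 without it (adjusted p = 0.0421). The parent nac103-11 was itself lower than WT for WRKY22, without a call, so this value is not a rise over WT. In gun1-101 rab8d-2 it was at 58.7 ± 3.07 CPM and did not pass against gun1-101 (1.21 ± 0.55, adjusted p = 0.11).

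ABO3 (AT1G66600), a WRKY factor of abscisic acid and drought responses that has also been linked to genes of organelle stress, showed the largest fitted difference between the double mutants and rab8d-2 among the called members. It was at 0.249, 0.323 and 0.217 CPM in WT, 0.0875, 0.179 and 0.219 in gun1-101, 0.21, 0.232 and 0.139 in nac103-11, and 0.166, 0.161 and 0.122 in rab8d-2. It was at 5.18, 4.89 and 5.13 CPM in gun1-101 rab8d-2 and at 1.03, 3.49 and 5.31 in nac103-11 rab8d-2. The 6 double mutant libraries were all above the 12 others, and the first nac103-11 rab8d-2 library was lower than the rest. ABO3 passed the low-count filter only through the double mutants, so the direction of its calls, also against rab8d-2, was set in advance. The rise against rab8d-2 was log2 5.03 ± 0.53 with gun1-101 (adjusted p = 0.00028) and 4.40 ± 0.53 with nac103-11 (adjusted p = 0.00157). Against the parents it was 4.92 ± 0.53 (adjusted p = 5.11e-05) and 4.03 ± 0.52 (adjusted p = 0.000174), and in rab8d-2 against WT it was -0.79 ± 0.58 (adjusted p = 0.37).

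WRKY71 (AT1G29860), a regulator of shoot branching and flowering, had the same form at a lower level. It was at 0.299, 0.539 and 0.261 CPM in WT, 0.219, 0.0896 and 0.175 in gun1-101, 0.336, 0.649 and 0.556 in nac103-11, and 0.581, 0.523 and 0.567 in rab8d-2. It was at 1.92, 2.93 and 3.7 CPM in gun1-101 rab8d-2 and 2.77, 1.55 and 2.19 in nac103-11 rab8d-2, above every other library. WRKY71 passed the low-count filter only through genotypes with rab8d-2, in this case with the single mutant among them. It rose by log2 4.10 ± 0.44 against gun1-101 (adjusted p = 5.05e-05), 2.07 ± 0.39 against nac103-11 (adjusted p = 0.00182), and 2.35 ± 0.39 and 1.95 ± 0.39 against rab8d-2 (adjusted p = 0.00459 and 0.0267). The last of these was lost without rab8d-2 replicate 1 or 3 (adjusted p up to 0.089).

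WRKY23 (AT2G47260), which acts in auxin-dependent root development and in flavonol synthesis, rose in every background. It was at 7.42, 5.98 and 9.04 CPM in WT, 14.3, 16.8 and 12.2 in gun1-101, and 5.76, 7.14 and 5.84 in nac103-11. It was at 20.5, 18.8 and 15.1 CPM in rab8d-2, 40.3, 40.1 and 38.2 in gun1-101 rab8d-2, and 26, 26.5 and 34.4 in nac103-11 rab8d-2. Within each pair of genotypes that differ by rab8d-2 the libraries did not overlap. The effects were log2 1.27 ± 0.19, 1.46 ± 0.19 and 2.21 ± 0.19 in the WT, gun1-101 and nac103-11 backgrounds (adjusted p = 0.00168, 0.000129 and 2.18e-05). Against rab8d-2 it rose further in gun1-101 rab8d-2 (1.13 ± 0.19, adjusted p = 0.00459) and did not pass in nac103-11 rab8d-2 (0.68 ± 0.18, adjusted p = 0.061). The call in rab8d-2 against WT was lost when only the libraries of these genotypes were fitted.

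Other rises in 1 or both double mutants were smaller. WRKY15, a regulator of growth under salt and oxidative stress, rose by log2 0.85 ± 0.27 against gun1-101 and 1.1 ± 0.27 against nac103-11 (adjusted p = 0.0292 and 0.00808), the first being lost in 4 fits that left out a library (adjusted p up to 0.116). WRKY8, which acts in salt tolerance, rose by 2.73 ± 0.60 and 1.73 ± 0.59 (adjusted p = 0.00412 and 0.0392), the second being lost in 9 fits (up to 0.139) and without the 2 libraries that stood apart. WRKY74 rose by 1.58 ± 0.36 and 1.39 ± 0.36. The further calls against gun1-101 were WRKY54, a regulator of salicylate accumulation (1.93 ± 0.55, adjusted p = 0.018), WRKY42, a repressor of the phosphate exporter PHO1 (1.59 ± 0.55, adjusted p = 0.0417), WRKY31 (1.44 ± 0.26), WRKY26, a gene of heat tolerance (1.06 ± 0.25), and WRKY47 (0.66 ± 0.20). Of these WRKY54, WRKY42 and WRKY47 were lost in 3, 7 and 4 fits that left out a library, with adjusted p up to 0.0662, 0.15 and 0.0861, and WRKY54 was at 2.79 without gun1-101 replicate 3. WRKY21 rose in nac103-11 rab8d-2 against nac103-11 (1.01 ± 0.20, adjusted p = 0.00228).

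Fewer members fell. WRKY14 (AT1G30650) was at 45.3, 56.1 and 49.2 CPM in WT, 62, 54.7 and 55.7 in gun1-101, and 47.3, 54.5 and 55.8 in nac103-11. It was at 38.4, 21.8 and 45.1 CPM in rab8d-2, 20.8, 19.8 and 20.2 in gun1-101 rab8d-2, and 17.5, 25.7 and 16.7 in nac103-11 rab8d-2. The second rab8d-2 library was near the double mutants and the other 2 near WT. WRKY14 fell against gun1-101 (log2 -1.5 ± 0.22, adjusted p = 0.000353) and against nac103-11 (-1.39 ± 0.22, adjusted p = 0.000684), and did not pass in rab8d-2 against WT (-0.52 ± 0.22, adjusted p = 0.129).

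WRKY35, WRKY56, WRKY9 and WRKY69 also fell in both double mutants against their parents. WRKY35 changed by log2 -0.85 ± 0.21 and -1.29 ± 0.21 (adjusted p = 0.00754 and 0.000718) and WRKY56 by -1.93 ± 0.41 and -1.38 ± 0.43 (adjusted p = 0.00364 and 0.0254). WRKY69 was the only member that fell in the 3 backgrounds, by -0.61 ± 0.15, -0.51 ± 0.14 and -0.69 ± 0.15 (adjusted p = 0.0171, 0.0171 and 0.00342), from 54.6 ± 5.92 to 35.7 ± 0.749 CPM in WT and rab8d-2. Its first call was lost in 3 and its second in 2 fits that left out a library (adjusted p up to 0.069 and 0.0766). WRKY9 changed by -0.91 ± 0.27 and -0.77 ± 0.27, lost in 3 and 12 such fits (up to 0.0867 and 0.139) and, for the second, without the 2 libraries that stood apart. The second value of WRKY56 was -0.79 without nac103-11 replicate 2 (adjusted p = 0.181).

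The further falls against nac103-11 were WRKY70, a regulator of the balance of salicylate and jasmonate signalling (-1.52 ± 0.43, adjusted p = 0.0176), WRKY27, which acts in bacterial wilt (-1.19 ± 0.28), WRKY36 (-1.05 ± 0.18) and WRKY3, a gene of resistance to necrotrophs (-0.74 ± 0.24, adjusted p = 0.0315). WRKY70 was lost without nac103-11 replicate 1 or nac103-11 rab8d-2 replicate 2 (adjusted p up to 0.0722), and WRKY3 in 3 fits that left out a library (up to 0.128). WRKY27 was higher in nac103-11 (18.4 ± 3.3 CPM) than in the other genotypes (8.05 to 11 CPM), and WRKY36 likewise (56.6 ± 4.36 CPM beside 27.4 to 40.6), with neither called in nac103-11 against WT. In rab8d-2 against WT alone WRKY43 fell (-1.23 ± 0.37, adjusted p = 0.0441), a call that was lost in 13 fits that left out a library (up to 0.208).

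**Figure D3:**
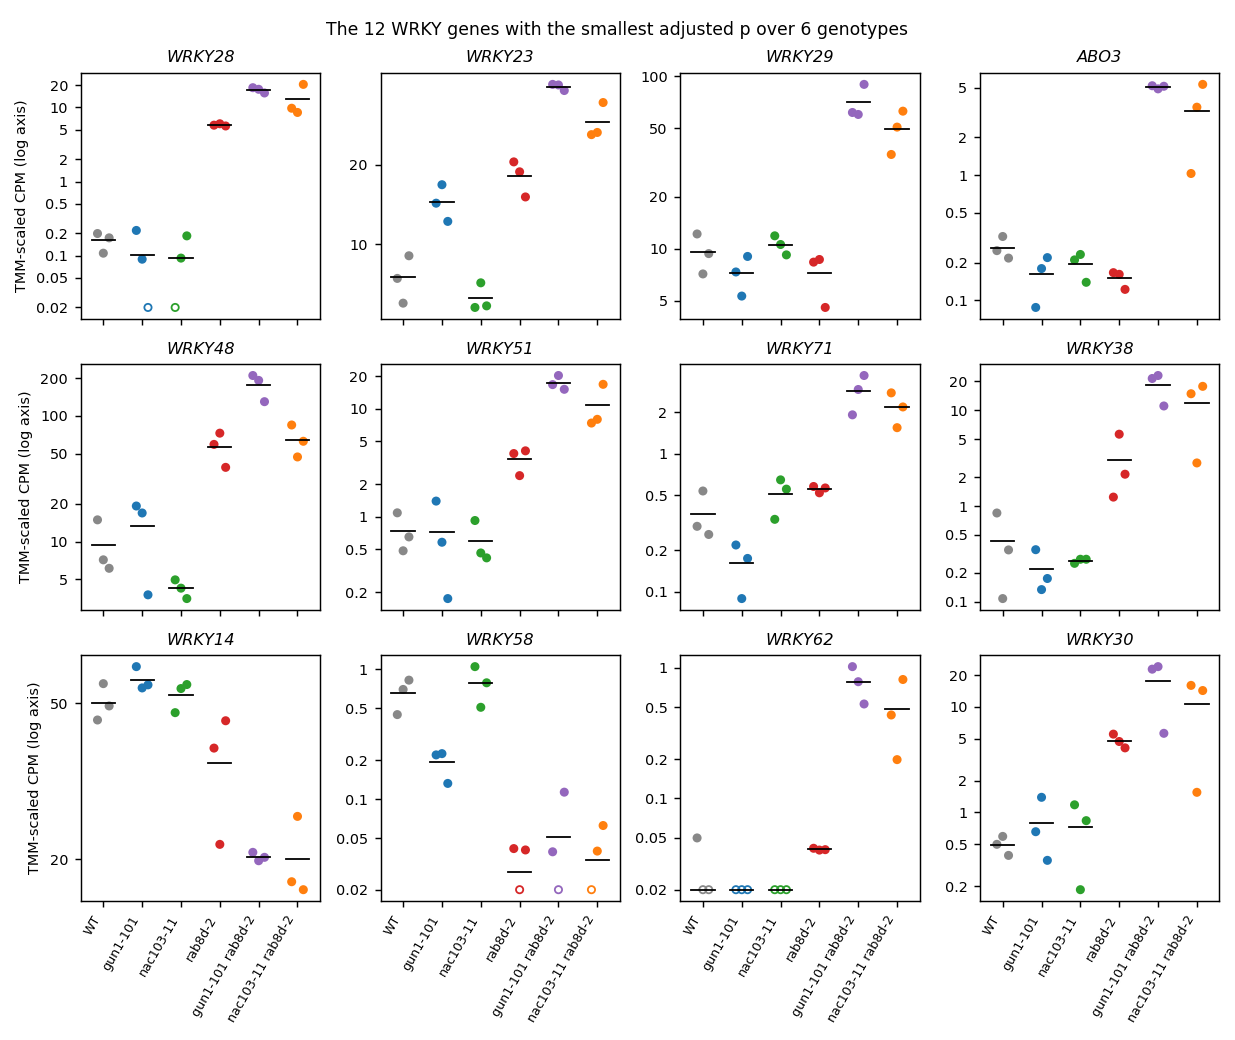
TMM-scaled CPM (log axes) of the 12 WRKY genes with the smallest adjusted p over the 6 genotypes. Each point is a library, the line is the mean of 3, and open circles at 0.02 stand for libraries with less than that level. ABO3, WRKY29, WRKY62 and WRKY71 are high only in the 6 libraries of the double mutants, while WRKY28, WRKY30, WRKY38, WRKY48 and WRKY51 are also higher in rab8d-2 than in WT.

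Members shared between the comparisons were as follows. Both double mutants were higher than their parents for 15 members (5.85% of all genes) and lower for 5 (8.98%). Of the 51 members that did not pass the filter through 1 side only, 9 were higher in both and 5 lower. In the 3 comparisons of rab8d-2 with its control WRKY23, WRKY28, WRKY30, WRKY38, WRKY48 and WRKY51 rose in each (1.92% of all genes), and WRKY69 fell in each (4.70%). Without WRKY28 and WRKY38, which passed through 1 side only, 4 rose in each. Of the 15 members higher in both, 6 had at least 1 W-box match in the window and 5 had at least 2, and of the 5 lower 1 had a match.

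Against rab8d-2 itself, gun1-101 rab8d-2 had 9 members higher (2.50% of all genes) and 0 lower (1.68%), and nac103-11 rab8d-2 had 5 higher (1.29%) and 0 lower (1.26%), with 4.18% and 2.54% of all genes called in either direction. The libraries did not overlap for 31 and 15 members, beside 33.4% and 17.7% of all genes. Among the 51 members that passed the filter both with and without rab8d-2 the counts were 5 and 2. This split does not follow the genotypes compared here. WRKY38 and WRKY71, which it leaves out, were over the filter level in all 9 libraries with rab8d-2. ABO3 and WRKY62 passed only through the double mutants. For the lower direction, edgeR gave 2 and 4 members at an unadjusted p below 0.05, beside 11.5% and 9.54% of all genes. The DESeq2 Wald test called 14 and 11 members, beside 8.87% and 9.4% of all genes, and of these 1 and 2 were lower, beside 4.27% and 4.08%. Members higher in both were WRKY29, WRKY31, WRKY62, ABO3 and WRKY71 (0.671% of all genes), and both comparisons share the rab8d-2 libraries as the control; 0 were lower in both (0.467%). Beyond the genes described above, WRKY31 rose by log2 1.59 ± 0.26 and 1.13 ± 0.26 (adjusted p = 0.00459 and 0.0377), and in gun1-101 rab8d-2 WRKY38 rose by 2.62 ± 0.67 (adjusted p = 0.0404) and WRKY26 by 1.18 ± 0.25 (adjusted p = 0.0184). Single libraries decided several of these calls: WRKY38, WRKY26 and the second value of WRKY31 were lost in 11, 4 and 10 fits that left out a library (adjusted p up to 0.138, 0.0673 and 0.106), the second value of WRKY31 also without the 2 libraries that stood apart, and WRKY38 was 3.45 without rab8d-2 replicate 2. The count of 9 was 5 without rab8d-2 replicate 3 or without gun1-101 rab8d-2 replicate 1 or 2. In these fits 383, 240 and 209 of all genes were called in place of 878. The count of 5 was 2 without rab8d-2 replicate 1 or 3, with 75 and 45 of all genes in place of 534. With the nac103-11 rab8d-2 and rab8d-2 libraries fitted alone the count of 5 was 0, beside 2 of all genes (0.00995%).

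**Figure D4:**
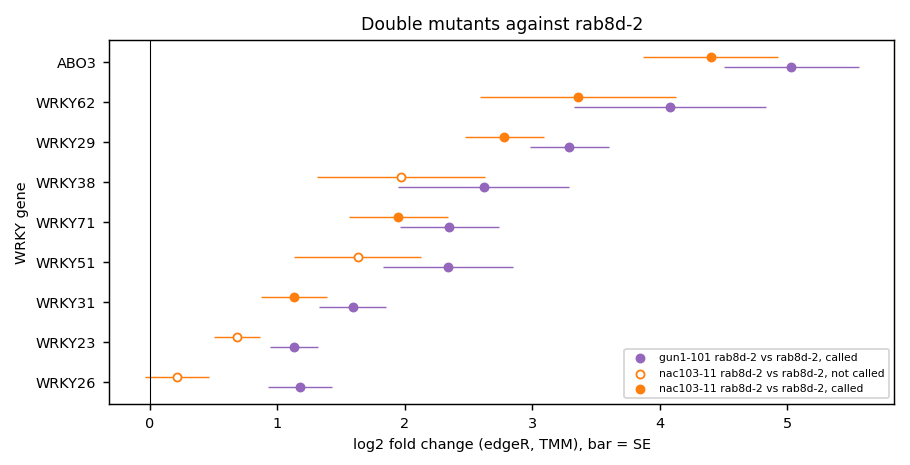
The log2 fold change of each double mutant against rab8d-2 (horizontal axis, bars are SE) for the 9 WRKY genes called in at least 1 of the comparisons (vertical axis), with filled points for adjusted p below 0.05. Every point lies to the right of 0, from 0.21 for WRKY26 in nac103-11 rab8d-2 to 5.03 for ABO3 in gun1-101 rab8d-2.

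The interaction asks whether the rab8d-2 effect differed between backgrounds. With gun1-101 it was called for 4 members, all higher, beside 0.181% of all genes higher and 0.0143% lower (0.195% in all). It was called for 2 of the 51 that passed the filter both with and without rab8d-2. The rab8d-2 effect with gun1-101 exceeded that in WT by log2 5.71 ± 0.79 for ABO3 (adjusted p = 0.00944), 3.69 ± 0.43 for WRKY29 (adjusted p = 0.00329), 3.48 ± 0.61 for WRKY71 (adjusted p = 0.0349) and 2.1 ± 0.37 for WRKY31 (adjusted p = 0.0349). In WT the effect on WRKY29, ABO3 and WRKY31 was below 0 and not called. The calls of WRKY71 and WRKY31 were each lost in 9 of the 18 fits that left out a library (adjusted p up to 0.127 and 0.108), and those of ABO3 and WRKY29 held in all 18. With nac103-11 no interaction was called for a member by edgeR, beside 0.00476% of all genes higher and 0.00476% lower (0.00952% in all), while 19 members had an unadjusted p below 0.05 (15.9% of all genes) and the DESeq2 Wald test called 4 (2.48% of all genes). The smallest p values were those of WRKY29 (2.64 ± 0.42, adjusted p = 0.056) and ABO3 (4.82 ± 0.78, adjusted p = 0.056), and both passed without nac103-11 rab8d-2 replicate 1. An effect called with gun1-101 and not with nac103-11 is not shown to differ between them, and that difference was not tested.

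No member was called in gun1-101 or nac103-11 alone. In gun1-101 against WT edgeR called 0 members (0.0190% of all genes) with 6 at an unadjusted p below 0.05 (7.09% of all genes), and the DESeq2 Wald test called 1 (0.363%). In nac103-11 against WT edgeR called 0 (0.00476% of all genes higher and 0.00476% lower, 0.00952% in all) with 8 at an unadjusted p below 0.05 (6.49% of all genes), and DESeq2 called 0 (0.241%). Libraries did not overlap for 9 members in each, beside 13.0% and 11.2% of all genes. The smallest p values with gun1-101 were those of WRKY23, where the 3 libraries lay above the WT libraries (log2 0.94 ± 0.19, adjusted p = 0.216), and WRKY58 (-1.76 ± 0.62, adjusted p = 0.684). Those with nac103-11 were WRKY24 (-1.33 ± 0.40, adjusted p = 0.666) and WRKY22 (-1.85 ± 0.57, adjusted p = 0.692). The count was 1 in gun1-101 without WT replicate 3, where WRKY23 passed, and 1 in nac103-11 without nac103-11 replicate 2, where WRKY24 passed. Without the 2 libraries that stood apart it was 8 and 3, or 13.1% and 4.92% of the members tested there, beside 18.6% and 5.75% of all genes.

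Several stress-induced members differed widely among the libraries of a genotype, and they are named here after their values were seen. WRKY40 was at 154, 69 and 6.74 CPM in WT, 153, 173 and 3.82 in gun1-101, and 36.3, 28.5 and 27.3 in nac103-11. It was at 110, 98.1 and 104 CPM in rab8d-2, 345, 357 and 159 in gun1-101 rab8d-2, and 156, 45.6 and 285 in nac103-11 rab8d-2. WRKY33 was at 374, 245 and 35.8 CPM in gun1-101, and WRKY46 and WRKY53, which act in salicylate signalling and senescence, were at 38.7, 22.1 and 0.746 CPM and at 31, 19.4 and 2.68 CPM there. Over the 6 genotypes the test did not pass for WRKY40, WRKY33, WRKY46 or WRKY53 (adjusted p = 0.166, 0.104, 0.082 and 0.341).

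A library was counted as low for a gene when it was at least 4-fold below both others of its genotype and these were at 5 CPM or more. Of the 45 members with a mean of at least 5 CPM, the third gun1-101 library was low for 5 (11.1%), namely WRKY33, WRKY40, WRKY46, WRKY48 and WRKY53, beside 0.974% of the 15911 genes of that level. The second nac103-11 rab8d-2 library was low for 4 (8.89% beside 0.685% of genes), namely WRKY18, WRKY30, WRKY38 and WRKY46. The third WT library was low for WRKY40 and WRKY53 (4.44% beside 1.04%), and the third gun1-101 rab8d-2 library for WRKY30 (2.22% beside 0.201%). What sets these libraries apart was not tested.

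**Figure D5:**
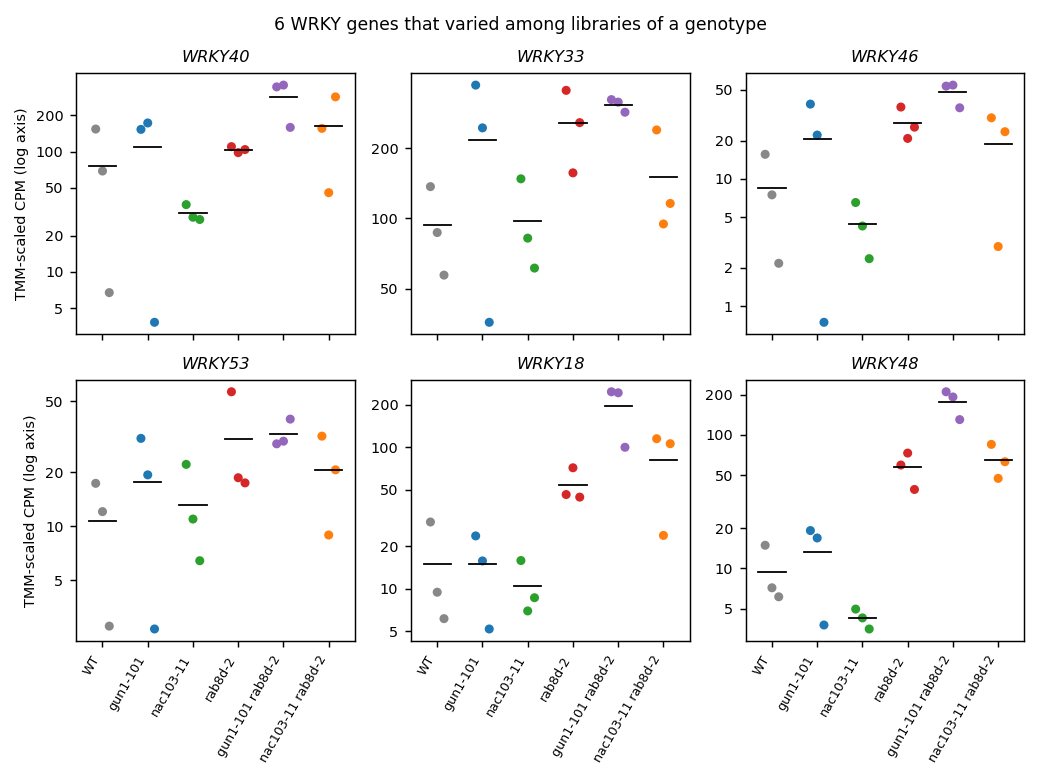
TMM-scaled CPM (log axes) of 6 WRKY genes in the 18 libraries, with the mean of 3 as a line. The third gun1-101 library is the lowest of its genotype for each of the 6 genes, and the second nac103-11 rab8d-2 library likewise.

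Genes of pathways that WRKY factors act in were counted from lists that were chosen with earlier results of these data known. Of all genes 4.80%, 12.7% and 14.7% were higher in the 3 comparisons of rab8d-2 with its control, and 7.50%, 15.7% and 14.3% lower. Against rab8d-2 2.50% and 1.29% of all genes were higher in its double mutants with gun1-101 and with nac103-11. Of 16 genes of salicylate and immune signalling 12 were tested. PR1, PR2 and PR5, commonly used markers of the salicylate response, were each at 0 in some genotypes, PR1 and PR5 also in gun1-101 rab8d-2. Of the 12, 1 rose in rab8d-2 against WT, 7 did so with gun1-101 in both genotypes and 5 with nac103-11 in both, and none fell, with medians of log2 0.64, 1.25 and 0.95. SAG101, a partner of EDS1 in immune signalling, rose in each of them (1.90 ± 0.22, 2.42 ± 0.22 and 1.32 ± 0.21). FRK1, a kinase gene induced by flagellin, rose by 3.06 ± 0.49 against gun1-101 and the salicylate regulator gene SARD1 by 3.64 ± 0.87, while PBS3, an enzyme of salicylate synthesis, and CBP60G, a regulator of it, rose by 4.75 ± 1.07 and 3.88 ± 0.90 against nac103-11. ICS1, the salicylate synthase gene, rose by 0.90 ± 0.29 against gun1-101 (adjusted p = 0.0289), and did not pass in rab8d-2 against WT (-0.37 ± 0.28, adjusted p = 0.394) or against nac103-11 (0.56 ± 0.28, adjusted p = 0.152). Against rab8d-2 3 genes rose in gun1-101 rab8d-2 (FRK1 by 2.71 ± 0.47, PBS3 by 3.66 ± 0.86 and the salicylate receptor gene NPR4 by 0.72 ± 0.17) and none in nac103-11 rab8d-2.

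Of the 5 tested camalexin genes, CYP71A12, an enzyme of the pathway, rose in the 3 comparisons by 2.31 ± 0.61, 3.34 ± 0.55 and 3.51 ± 0.56, and GGP1, a peptidase of the pathway, rose in both double mutants (1.02 ± 0.32 and 1.47 ± 0.32). PAD3, the last enzyme of the pathway and a target of WRKY33, rose against gun1-101 (3.56 ± 0.60, adjusted p = 0.000735). CYP79B2 and CYP79B3, which make the indole precursor, fell in rab8d-2 against WT (-1.72 ± 0.50 and -1.81 ± 0.45), and CYP79B3 fell also against gun1-101 (-1.26 ± 0.44, adjusted p = 0.0464). Of 14 kinase cascade and VQ protein genes, none changed in rab8d-2 against WT, MPK11 rose by 3.68 ± 0.80 and 3.60 ± 0.86 in the double mutants and MKK1 by 1.00 ± 0.23 with gun1-101, and IKU1, a VQ protein gene, fell in both (-0.71 ± 0.19 and -0.98 ± 0.19).

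Cell type markers moved with the same allele, and their part in the WRKY changes was not tested. The 5 root hair markers fell in each of the 3 comparisons of rab8d-2 with its control, from summed levels of 168 to 921 CPM in the genotypes without it to 20.6 to 107 CPM with it. Of 5 endodermis markers 5, 4 and 4 fell (416 to 771 CPM and 66.6 to 330 CPM), of 5 xylem markers 4, 5 and 5 (198 to 405 CPM and 28.4 to 126 CPM) and of 3 phloem markers 2, 3 and 3 (82.2 to 164 CPM and 25.8 to 66.4 CPM). None of these markers was at 0 in a genotype. Of the 5 meristem markers 1, 3 and 1 rose and 0, 0 and 1 fell, and of 3 root cap markers 0, 1 and 1 fell. Between the double mutants and rab8d-2 no root hair, endodermis, xylem, phloem or root cap marker passed, while WOX5, a stem cell regulator, rose in both (1.47 ± 0.31 and 1.24 ± 0.30) and SCR, a regulator of the endodermis and stem cells, fell with nac103-11 (-0.58 ± 0.13). In such bulk samples fewer cells of a type and less RNA per cell cannot be told apart.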

How the data were processed

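RNA was measured by sequencing in 18 root libraries. The authors made estimated counts per gene (expected counts) with RSEM 1.3.1 on TAIR10, per the submitters' processing notes, and the deposited values are not normalized. The authors' deposited TPM values served for levels and for an alternative. A library's TPM values sum to 67.11% to 79.5% of the full scale. Strand and aligner are not given in the sources used here, so reads of a gene and an antisense partner cannot be told apart. Of the expected counts 19.6% were not whole (tolerance 1e-06), and all were rounded.

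The test was edgeR 4.0.16 in R 4.3.3. After filterByExpr 21004 genes were left of the table, 4173 fewer than it holds. TMM factors ran from 0.706 to 1.171 and the common dispersion was 0.104. All 18 libraries entered 1 robust quasi-likelihood fit in which each genotype had its own coefficient. Contrasts were tested with glmQLFTest, with Benjamini-Hochberg adjustment over all genes and calls at adjusted p below 0.05. The SE is the absolute log2 fold change over the square root of F. The filter asked for 0.437 CPM in 3 libraries. A genotype at 0 counts allows up to 3 counts over its libraries, and floors and exact 95% intervals cover counting error only. limma 3.58.1 and DESeq2 1.42.0 served as alternatives. The procedure was tested on simulated data. Libraries 1 and 2 of gun1-101 rab8d-2 differed by a chi-square of 2.11 per degree of freedom, beside 11.8 to 175.59 for other replicate pairs, and were kept as 2 libraries, with their sum as an alternative.

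Named members were the called ones of each comparison (up to 12 highest and 12 lowest, or the 2 smallest p values), the 5 highest by TPM, the 12 smallest p values over the genotypes and ABO3. Up to 3 called genes per list and comparison were named by smallest p, and ICS1, WRKY60 and the members with uneven libraries were named after their values were seen. The members and the lists were chosen with earlier results of these data known. Promoters were cut from RefSeq TAIR10.1, and no protein sequence was used here.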

Additional observations from a re-analysis of the deposited data

Results flagged for a closer look

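The effect of rab8d-2 differed between the gun1-101 and the WT background, by a test of the difference itself, for 4 WRKY genes. The difference was log2 5.71 for ABO3, 3.69 for WRKY29, 3.48 for WRKY71 and 2.1 for WRKY31 (edgeR's quasi-likelihood test). In each case the 3 libraries of gun1-101 rab8d-2 lay above the 3 of gun1-101, while the libraries of rab8d-2 and WT overlapped for WRKY29, WRKY31 and WRKY71 and the rab8d-2 libraries lay below the WT libraries for ABO3. WRKY71 and WRKY31 were each lost in 9 of 18 fits that left out a library, with the replicate number as a block, and with libraries 1 and 2 of gun1-101 rab8d-2 summed. ABO3 passed the low-count filter only through the double mutants, which favoured a difference in this direction. WRKY71 passed it only through genotypes with rab8d-2.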

How the results depend on the processing

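No named member changed direction under any alternative: of their values 2440 stayed on the same side of the threshold, 228 fell below it and 13 passed it. The counts of members called over the 6 genotypes (32 to 41 with 1 library left out) and of each double mutant against its parent (21 to 32 with gun1-101 and 23 to 29 with nac103-11) stayed within 1.5 times under every alternative. Numbers in brackets after a count below are the calls among all genes in the same fits. For rab8d-2 against WT the count of 10 (2585) was 2 with these 6 libraries fitted alone (76). It was 18 without the 2 libraries that stood apart (7974), and 5 to 13 with 1 library left out (447 to 4703). For gun1-101 against WT the count of 0 (4) was 1 by DESeq2 (77), 8 without those 2 libraries (3946), and 0 to 1 with 1 left out (2 to 39). For nac103-11 against WT the count of 0 (2) was 3 without those 2 libraries (1219) and 0 to 1 with 1 left out (2 to 3). For gun1-101 rab8d-2 against rab8d-2 the count of 9 (878) was 14 by DESeq2 (1966), 15 with these libraries alone (957) and 17 without those 2 (3285). It was 5 with libraries 1 and 2 of gun1-101 rab8d-2 summed (234), and 5 to 13 with 1 left out (209 to 1791). For nac103-11 rab8d-2 against rab8d-2 the count of 5 (534) was 11 by DESeq2 (2037), 0 with these libraries alone (2) and 3 without those 2 (437). It was 3 with the sum (236), and 2 to 7 with 1 left out (45 to 971). The interaction with gun1-101 gave 4 (41), and 7 by limma on log2(TPM + 1) (284), 2 with the sum (16) and 2 to 5 with 1 left out (11 to 185). That with nac103-11 gave 0 (2), and 4 by DESeq2 (537). It gave 2 by limma on log2(TPM + 1) (58), 2 on log2(TPM + 0.1) (47) and 0 to 2 with 1 left out (2 to 72). The cause was not tested. Of the calls in rab8d-2 against WT, each double mutant against its parent, each against rab8d-2 and the interaction with gun1-101, 5 of 10, 19 of 27, 21 of 27, 5 of 9, 2 of 5 and 2 of 4 held in each fit that left out a library. Over all alternatives 3, 19, 18, 5, 0 and 2 of these calls were not lost in any fit that tested them.

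With the replicate number as a block, nac103-11 rab8d-2 against rab8d-2 had 2 members called in place of 5 and the interaction with gun1-101 2 in place of 4, and no other count moved by over 1.5 times. Same-numbered libraries of different genotypes had correlations of their deviations from -0.61 to 0.55, above 0.1 in 15 of 45 pairs, and 7 of 18 libraries correlated best with their own number, so the numbers were not taken as pairing. On log2(TPM + 0.1) the median over all genes shifted by 0.27 for rab8d-2 against WT, 0.20 against gun1-101, 0.16 and 0.14 in gun1-101 and nac103-11 against WT, 0.11 and -0.20 for the double mutants against rab8d-2 and -0.32 for the interaction with nac103-11. Members under 1 CPM rest on few counts, and a call that was not made there does not show that a level did not differ.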
